A study of Mus musculus with 9 samples.

Results

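A set of 10 genes of muscle energy metabolism were examined for MyoD1 occupancy in mouse C2C12 myoblasts: Ckm, Ckb, Ckmt2, Pygm, Pfkm, Pgam2, Eno3, Aldoa, Slc2a4 and Ampd1. They were chosen by name, and the locus of each was its gene body plus 10 kb on either side on mm10 with GENCODE vM21, so they make up 10 of 21911 protein-coding loci. Every peak of the 6 deposited lists that overlapped such a locus was collected, which gave 99 of 116126 peaks. These peaks merged into 45 of 58309 regions.

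The measurement was CUT&RUN, in which anti-Flag M2 antibody directs micrococcal nuclease to a chromatin-bound Flag-tagged protein and the fragments set free are sequenced. C2C12 is a line of mouse skeletal muscle myoblasts that fuse into myotubes after serum withdrawal. All 6 libraries analysed came from 1 clonal line in which the endogenous Myod1 locus carries 3xFlag-Halo and a doxycycline-inducible 3xFlag-Halo-MyoD1 transgene is also present. Both groups were switched to differentiation medium, and the 3 +dox libraries received doxycycline for 6 h from that switch, whereas the 3 no dox libraries did not. The label dox therefore stands for endogenous plus induced tagged MyoD1, and no dox for endogenous tagged MyoD1. The 3 wild-type libraries of the series were not analysed here, so no untagged background stands beside the values.

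MyoD1 is a basic helix-loop-helix factor that binds E-boxes (CANNTG), with a preference for CAGCTG, and opens the muscle programme together with MEF2 factors. The 10 genes supply a contracting fiber with ATP. Creatine kinases (Ckm in the cytosol of muscle, Ckb in brain and in myoblasts, Ckmt2 in sarcomeric mitochondria) buffer ATP with phosphocreatine. Pygm, muscle glycogen phosphorylase, releases glucose 1-phosphate from glycogen, and Slc2a4 encodes GLUT4, the insulin-responsive glucose transporter. Pfkm, Aldoa, Pgam2 and Eno3 are the muscle phosphofructokinase, aldolase, phosphoglycerate mutase and enolase of glycolysis, and Ampd1 is the muscle AMP deaminase of the purine nucleotide cycle. Switches from fetal or ubiquitous isozymes to muscle isozymes are a textbook feature of myogenic differentiation.

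The following 200 bp stretches come from the strongest recurrent region of 5 of these loci, that with the highest mean height rank. They are printed from mm10 on the plus strand and centred on the maximum in +dox replicate 3, where each region ranked highest. Maxima of the calling libraries spread over 725 bp at Ckb, 275 bp at Pgam2, 750 bp at Eno3, 400 bp at Aldoa and 100 bp at Slc2a4. The stretches therefore need not hold the maxima of other libraries. They are shown because E-boxes can be read directly in them. Those of Ckm, Pygm, Pfkm and Ampd1 are left out because they overlap annotated UTRs. In the first pair the capitals mark CAGCTG, and in the other 3 they mark any CANNTG.
Ckb, chr12:111664426-111664625: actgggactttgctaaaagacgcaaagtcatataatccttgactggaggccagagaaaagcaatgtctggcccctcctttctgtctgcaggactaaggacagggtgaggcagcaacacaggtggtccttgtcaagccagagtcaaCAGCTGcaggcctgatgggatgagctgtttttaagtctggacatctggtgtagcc
Pgam2, chr11:5795826-5796025: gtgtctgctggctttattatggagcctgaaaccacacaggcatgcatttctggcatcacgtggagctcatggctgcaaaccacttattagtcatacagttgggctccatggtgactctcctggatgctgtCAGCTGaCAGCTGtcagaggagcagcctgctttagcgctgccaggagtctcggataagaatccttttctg
Eno3, chr11:70655876-70656075: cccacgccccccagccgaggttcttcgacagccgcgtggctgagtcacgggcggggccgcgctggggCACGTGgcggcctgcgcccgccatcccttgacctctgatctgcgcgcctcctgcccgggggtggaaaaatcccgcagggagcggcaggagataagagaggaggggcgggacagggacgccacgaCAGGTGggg
Aldoa, chr7:126799276-126799475: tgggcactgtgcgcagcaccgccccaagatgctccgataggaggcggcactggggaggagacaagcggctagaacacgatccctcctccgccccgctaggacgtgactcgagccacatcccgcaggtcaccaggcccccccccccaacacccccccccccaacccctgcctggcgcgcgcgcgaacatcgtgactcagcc
Slc2a4, chr11:69948726-69948925: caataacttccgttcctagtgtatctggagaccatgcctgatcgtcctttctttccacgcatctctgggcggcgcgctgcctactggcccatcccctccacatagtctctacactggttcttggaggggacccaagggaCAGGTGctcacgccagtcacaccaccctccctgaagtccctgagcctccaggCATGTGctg
The Ckb stretch held 1 CAGCTG among 3 CANNTG, and the Pgam2 stretch held 2 CAGCTG, separated by a single base, among 4 CANNTG. The stretches of Eno3 and Slc2a4 held 2 CANNTG each, with cores CACGTG and CAGGTG at Eno3 and CAGGTG and CATGTG at Slc2a4. The Aldoa stretch held 0 CANNTG and was 70% G and C.

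A peak was ranked by its maximum signal, the highest CPM within it, as a percentile of its own list (100 is the strongest peak of that library). The 6 lists differed in depth and length. Libraries held between 2868000 and 8030000 alignments, and lists between 9389 and 53661 peaks, the largest of each belonging to +dox replicate 3. That library was called down to a lower total signal (336) than 4 of the others (837 to 904), and no dox replicate 3 was also called lower (354). Consensus regions were those called in at least 2 of 3 libraries of a group. Core targets were the 9560 no dox consensus regions, and Expanded targets were the 5361 of 13908 +dox consensus regions that overlapped none of them. Loci of 6 myoblast genes were used to check the label: 6 had a no dox peak in at least 2 of 3 libraries and 5 a +dox peak. The exception was Myog, with peaks in 3 of 3 no dox and 1 of 3 +dox libraries. Among 4 loci of other lineages 1 was called in each group. It was Rbfox3, a neuronal gene of 421836 bp, with peaks in all 6 libraries and a mean percentile of 88.8, above that of every member.

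Within 10 kb, most of the loci had peaks in both groups, and fewer had peaks inside the gene itself. A peak in at least 2 of 3 libraries was present at 7 of 10 loci without dox (Ckb, Pygm, Pfkm, Pgam2, Eno3, Aldoa and Slc2a4), where 38.7% of all protein-coding loci had one. With dox it was present at 9 of 10, against 50.5% of all loci, the additions being Ckm and Ampd1. Ckmt2 had 0 peaks in all 6 lists. A region called in all 6 libraries lay at 4 loci (Pfkm, Eno3, Aldoa and Slc2a4), against 21.7% of all loci. Counted in gene bodies without flanks, 2 of 10 members had such a peak without dox and 4 of 10 with dox, against 29.4% and 41.1% of all loci. The median gene length was 14 kb for the members and 17.4 kb for all loci. These counts depended on how lists of unequal length were treated. With all lists limited to 9389 peaks of highest maximum signal, 5 member loci were called without dox and 5 with dox, against 32.7% and 34.6% of all loci, and Ckm and Ampd1 were no longer among them. Without +dox replicate 3, 6 loci were called with dox, against 39.7% of all loci.

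**Figure D1:**
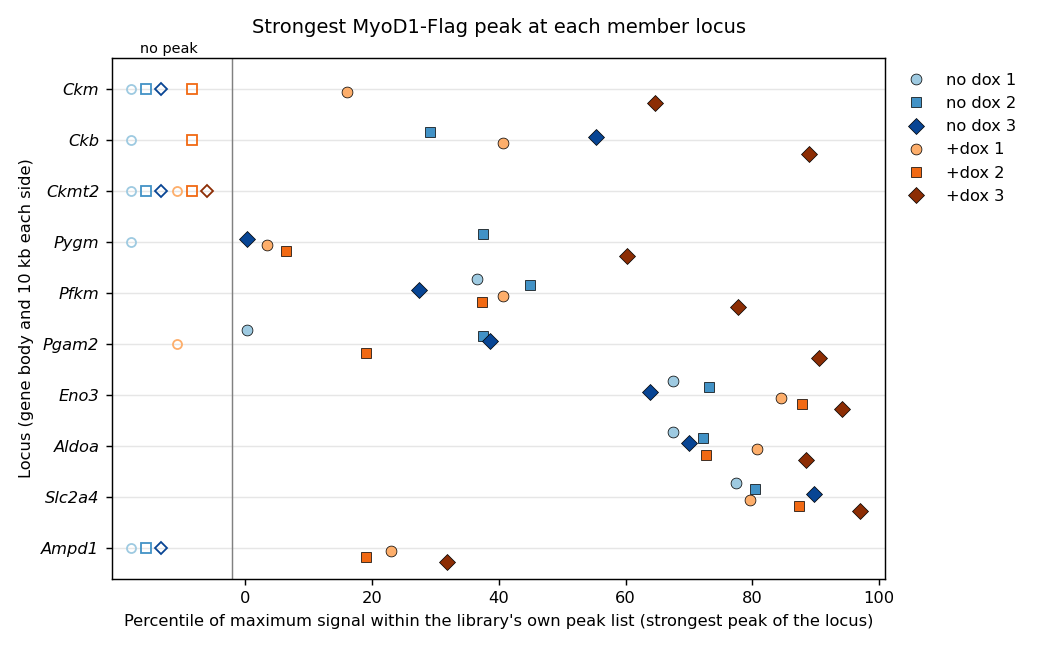
Percentile of maximum signal of the strongest peak at each of the 10 loci (x axis, percent of the library's own list) in each of the 6 libraries. Filled symbols are peaks, and open symbols left of the line are libraries with no peak. Slc2a4, Eno3 and Aldoa ranked highest in each library except +dox replicate 3, where Pgam2 (90.5) and Ckb (88.9) lay above Aldoa (88.4). Ckmt2 had no peak, and +dox replicate 3 gave the highest rank at each of the 9 loci with peaks.

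The number of peaks in the 10 loci was 8, 10 and 12 in the no dox libraries and 15, 14 and 40 in the +dox libraries (10 ± 2 and 23 ± 14.7, SD, n = 3). The groups did not overlap, and the difference of 13 had p = 0.1 in the exact two-sided permutation test, the smallest p that 3 libraries against 3 can give. Without +dox replicate 3 the difference was 4.5 peaks. As a share of each list the same peaks were 0.0852%, 0.0721% and 0.0895% without dox and 0.12%, 0.106% and 0.0745% with dox. On that scale the groups overlapped, since +dox replicate 3 lay below 2 of the no dox libraries. Of the 45 regions, 29 were called in 1 library, and 25 of those in +dox replicate 3. Another 11 were called in 2 to 5 libraries and 5 in all 6. Of the 45, 31 had no peak in a no dox library, against 65.3% of all merged regions, and 2 had none in a +dox library, against 6.95%. Of all merged regions, 59.2% were called in +dox replicate 3 alone.

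Of the 16 regions that recurred in at least 2 libraries of a group, 9 overlapped Core targets and 7 were Expanded. The whole series held 9560 Core and 5361 Expanded targets, and the split of 16 regions sets the members apart from neither. The member gene was the nearest annotated start for 7 of these 16 and for 22 of all 45. Peaks in a locus were thus often at a neighbouring gene, and each is described with its neighbour below. An Expanded region lay at 6 loci (Ckm, Pygm, Pfkm, Eno3, Aldoa and Ampd1), against 25.6% of all loci. With lists of equal length 1 locus, Aldoa, kept an Expanded region, against 10.2% of all loci. Aldoa and Ampd1, 2 of the loci, had a region called in every +dox library and in no library without dox, against 3.77% of all loci. With lists of equal length, and with one threshold of total signal in all lists, 0 such member regions were left. Regions of the reverse kind numbered 0 at the members.

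**Figure D2:**
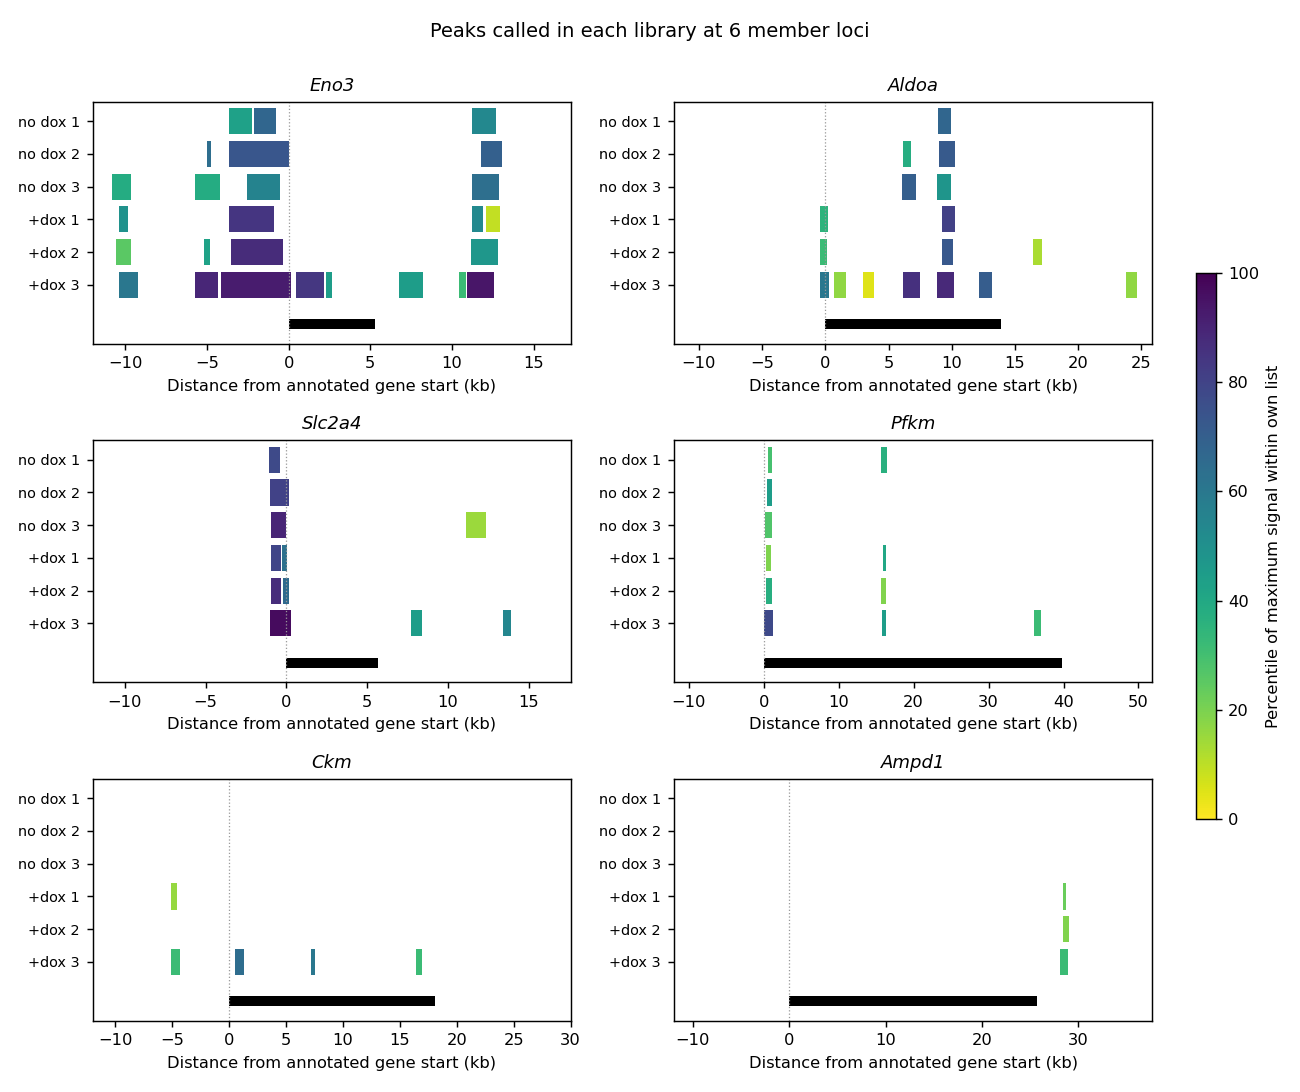
Peaks of each library at 6 of the loci, by distance from the annotated gene start in the direction of transcription (x axis, kb). Each box is 1 peak, its color is the percentile of maximum signal in its own list, and the black bar is the gene. Eno3 and Slc2a4 had peaks just upstream of the start in all 6 libraries, whereas Ckm and Ampd1 had peaks in +dox libraries alone.

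Slc2a4, the GLUT4 gene, had the highest mean rank of the members over the 6 libraries and the highest in each no dox library. Eno3 ranked above Slc2a4 in +dox replicates 1 and 2, and Aldoa did so in +dox replicate 1. For Slc2a4 the following held. Its region at chr11:69947901-69949250 was a Core target called in all 6 libraries, with its maximum 638 bp upstream of the start of Slc2a4, between genes, over the stretch printed above. The percentile was 77.5, 80.4 and 89.8 without dox and 79.6, 87.4 and 97 with dox. The groups overlapped (82.6 ± 6.4 and 88 ± 8.75, difference 5.45, exact permutation p = 0.6, adjusted p = 0.893 over the 4838 regions called in all 6). The maximum signal itself was 9.77, 9.48 and 9.86 CPM without dox and 20.2, 22.8 and 19.4 CPM with dox. On the CPM scale all 3 +dox libraries thus lay above all 3 no dox libraries. How many of the 4838 regions did so on that scale was not counted. Their median log2 fold change in the limma fit below was 0.91, against 1.10 at this region. In +dox replicates 1 and 2 the region was called as 2 peaks, with the second at the start site itself at the 63.1 and 65.7 percentile. The mean percentile over 6 libraries, 85.3, was at or above that of 69.2% of the loci with a peak in all 6 lists. Among 5413 such loci that neither are members nor overlap Slc2a4, the most similar in their 6 percentiles were Pacs2 (Euclidean distance 4.41 percentile points) and C730034F03Rik and Chkb (5.51 each, with the same values at both).

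Eno3, the muscle enolase gene, held 26 peaks in 8 regions, the most of any member. The region just upstream of Eno3 at chr11:70653051-70657350, a Core target, spanned 4300 bp. Its maximum in the strongest library lay 1226 bp before the start of Eno3. Its percentile was 67.5, 73.2 and 55.3 without dox and 84.6, 87.8 and 92.5 with dox. All +dox libraries lay above all no dox libraries (65.3 ± 9.14 and 88.3 ± 3.98, difference 22.9, exact permutation p = 0.1, the smallest possible, adjusted p = 0.421). Ranked by total signal in place of maximum signal, the region stood at 84.5, 95.5 and 84 without dox. With dox it stood at 94.5, 96.4 and 97.5. On that scale the difference was 8.16 and the groups overlapped. The maximum signal was 7.45, 7.45 and 3.43 CPM without dox and 25.5, 23.4 and 9.71 CPM with dox. The groups did not overlap on the CPM scale, and how many of all regions did the same was not counted.

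The other recurrent regions at Eno3 lay in or at neighbouring genes. The region at chr11:70668151-70670250 in an intron of Spag7 was also called in all 6, at 53.3, 69.9 and 63.8 without dox and 52.8, 46.9 and 94.2 with dox. Here +dox replicates 1 and 2 were the lowest of the 6 and replicate 3 the highest, and the difference of 2.29 had an exact permutation p = 1. A region in an intron of Pfn1, the profilin gene, at chr11:70651451-70653000 was a Core target called in no dox replicates 2 and 3 (64.3 and 38.6) and +dox replicates 2 and 3 (42.4 and 89.3). A region at the start of Slc25a11, which encodes a mitochondrial carrier, at chr11:70646401-70648000 was Expanded. It was called at 49.3, 25.7 and 60.2 in the +dox libraries and at 38.6 in no dox replicate 3.

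Aldoa, the aldolase of muscle, had 3 recurrent regions, of which 2 were called in both groups and 1 in +dox libraries alone. The shared region at chr7:126798851-126800250, a Core target, spanned the principal starts of Aldoa, and its maximum in the strongest library lay 122 bp upstream of the start of Aldoa-201. Fam57b also overlaps this interval in the annotation. Its percentile was 67.5, 72.2 and 47.9 without dox and 80.7, 72.7 and 88.4 with dox. The groups did not overlap, although no dox replicate 2 and +dox replicate 2 stood within 1 point of each other (62.5 ± 12.9 and 80.6 ± 7.87, difference 18.1, exact permutation p = 0.1, adjusted p = 0.421). The maximum signal was 7.45, 7.23 and 3 CPM without dox and 21.3, 12.2 and 6.72 CPM with dox, and on this scale the groups overlapped.

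A second Core region at chr7:126801651-126803050, in introns of Aldoa and Fam57b, was called at 37.5 and 70 in no dox replicates 2 and 3 and at 86.3 in +dox replicate 3. The third region, chr7:126808851-126809550, was Expanded and lay 118 bp upstream of Aldoa-214, the start farthest from the body of the gene. It had no peak in any no dox library and ranked 35.5, 31.9 and 60.2 in the +dox libraries, with the maximum at the same position in all 3. With lists of equal length, or one threshold, it was no longer called in all 3 +dox libraries. Its height was 18, 18 and 16 alignments.

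Pfkm, the muscle phosphofructokinase gene, had peaks of lower rank, at alternative starts. The region at chr15:98092651-98093900 was a Core target called in all 6 libraries, near the distal start of Pfkm and that of Senp1, a SUMO protease gene. In the strongest library the maximum lay in an annotated UTR of Senp1. It was 125 bp upstream of the nearest Senp1 start and 732 bp downstream of the start of Pfkm-205. The percentile of the region was 29.3, 44.9 and 27.5 without dox and 19.5, 37.4 and 77.8 with dox. The groups overlapped (difference 11, exact permutation p = 0.7). The Expanded region at chr15:98108201-98109050 covered the start of Pfkm-201, with the maximum 85 bp into the transcript. It ranked 40.6, 19 and 44.8 with dox, and 36.6 in no dox replicate 1. The 200 bp around its maximum in +dox replicate 3 held 1 CANNTG. The region with 100 bp added on each side held 5. That maximum lay downstream of the stretch printed below, so the stretch does not show whether the called region held an E-box. The 245 bp before that start, shown because the window there was called in 3 of 3 +dox libraries, held 0 CANNTG and so carries no capitals.
Pfkm, chr15:98108221-98108465: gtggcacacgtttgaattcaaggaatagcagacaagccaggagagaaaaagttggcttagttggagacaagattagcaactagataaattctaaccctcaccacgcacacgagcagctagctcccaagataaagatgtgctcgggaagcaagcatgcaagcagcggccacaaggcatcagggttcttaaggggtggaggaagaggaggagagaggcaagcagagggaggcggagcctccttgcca

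Pgam2, the muscle phosphoglycerate mutase gene, had 1 recurrent region, chr11:5794951-5796650, a Core target in an intron of Dbnl and 7807 bp from the start of Pgam2. It was called in 3 of 3 no dox libraries at 0.325, 37.5 and 38.6, and in +dox replicates 2 and 3 at 19 and 90.5. The 200 bp around its maximum in +dox replicate 3 held the pair of adjacent CAGCTG printed above. The maxima of the other calling libraries lay 7907 to 8082 bp from the start, outside that pair's surroundings of 100 bp. In the region with 100 bp added on each side lay 7 CAGCTG. The Pgam2 start itself had a peak in +dox replicate 3 alone, at 44.8.

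Ckb, the brain form of creatine kinase that myoblasts also make, had 1 recurrent region as well. It was the Core target chr12:111663601-111665950, between genes and 7812 bp downstream of the Ckb start. It ranked 29.1 and 55.3 in no dox replicates 2 and 3 and 88.9 in +dox replicate 3. At the Ckb start there was a peak in +dox replicate 1 alone, at 40.6. Ckb was thus counted as called with dox through peaks at different places.

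Ckm, the muscle creatine kinase gene and a classical MyoD1 target, had 0 peaks in the 3 no dox libraries. Its recurrent region, chr7:19399651-19400450, was Expanded but lay 5 bp from the start of Klc3, a kinesin light chain gene, and ranked 16 and 31.8 in +dox replicates 1 and 3, with heights of 12 and 10 alignments. The other 3 peaks of the locus were all in +dox replicate 3, at percentiles of 64.6, 60.2 and 31.8. The first of these, at chr7:19405301-19406050, lay in an annotated intron of Ckm but 5399 bp upstream of the start of Ckm-203. The second lay in an intron of Ckm, 1138 bp downstream of the start of Ckm-201. Over the 5 kb upstream of the RefSeq start of Ckm, 0 peaks were called in each of the 6 libraries, and the first peak lay just outside that window. The sequence before that start, trimmed of annotated transcript, held 1 CAGCTG (in capitals) and is shown because a CAGCTG stood there without a call.
Ckm, chr7:19410844-19411024: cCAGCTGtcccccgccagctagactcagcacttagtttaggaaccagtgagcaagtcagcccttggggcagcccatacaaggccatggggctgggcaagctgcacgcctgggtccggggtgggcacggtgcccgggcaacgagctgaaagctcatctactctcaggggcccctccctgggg
A missing call is not evidence of absence at these depths, and no read level is given for intervals outside the lists.

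Pygm, the muscle glycogen phosphorylase gene, had 12 peaks, of which 7 were in +dox replicate 3. Both recurrent regions were Expanded and lay at the start of Rasgrp2, a guanine nucleotide exchange factor gene downstream of Pygm. At chr19:6399151-6400600 the percentile was 3.5 and 6.48 in +dox replicates 1 and 2. At chr19:6400651-6402050 it was 3.5 and 16.7 in +dox replicates 1 and 3, and 37.5 in no dox replicate 2. Inside Pygm the no dox libraries had 1 peak, at 0.354 in no dox replicate 3, with a height of 4 alignments. Pygm was thus counted as called without dox through peaks at different places, and held 0 Core regions.

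Ampd1, the muscle AMP deaminase gene, had 1 region, chr3:103102151-103103100, with no peak in any no dox library. It ranked 23, 19 and 31.8 in the +dox libraries with heights of 14, 14 and 10 alignments. The region was at the start of the neighbouring gene Dennd2c, 22 bp into it, and not within Ampd1. Ckmt2 had no region.

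The RefSeq promoter windows (250 bases before to 50 after a start, GRCm38.p6) narrowed the question to the starts of the genes themselves. The table held 13 windows for 8 of the 10 genes, leaving out Slc2a4 and Ampd1. A peak in at least 2 of 3 libraries overlapped 2 of 13 windows without dox, against 14.9% of 32851 windows of all genes. With dox it overlapped 4 of 13, against 22.7%. Of 65 windows of the other pathway genes described below, 30 (46.2%) had such a peak without dox and 35 (53.8%) with dox. The member windows called without dox were both of Aldoa, and those added with dox were both of Pfkm, at adjacent starts. Eno3 had a peak over its window in no dox replicate 2 and +dox replicate 3, since the maximum of its region lay further upstream. CAGCTG was present in 6 of the 13 windows (46.2%), against 16.3% of all windows and 20% of those of the other pathway genes. The 6 member windows with CAGCTG were at Ckm, Ckmt2, Pygm, Pgam2, Eno3 and Aldoa, and Aldoa was the only gene among them with a recurrent call over the window.

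Differences in rank were read against all regions called in all 6 libraries. Among the 5 member regions, 2 had all +dox percentiles above all no dox percentiles (Eno3 upstream and Aldoa) and 0 the reverse, against 23.7% and 0.0413% of all 4838 regions. The median difference was 11 percentile points for the members and 6.4 for all, and without +dox replicate 3 that of the members was 0.931. The Eno3 upstream difference was between 17.9 and 26.9 with each library left out in turn, but 8.16 by percentile of total signal. The ranks depended on the list they were taken in. Ranked among the 4838 common regions alone, 3.56% of regions were higher and 4.44% lower without overlap, and 0 members were in either class. On that scale the Eno3 upstream region was 46, 36.9 and 24.3 without dox and 64.8, 68.5 and 44.1 with dox, a mean difference of 23.4, and its groups overlapped because +dox replicate 3 lay below no dox replicate 1. Taken by replicate number, Eno3 upstream and Aldoa were higher with dox in 3 of 3 pairs by percentile, by common rank and by CPM. Slc2a4 was higher in 3 of 3 pairs by percentile and CPM and in 1 of 3 by common rank. Pfkm was higher in 3 of 3 pairs by CPM and in 1 of 3 by percentile and by common rank. The Spag7 region was higher in 2 of 3 by CPM and in 1 of 3 by the other measures. How many of the 4838 regions were higher in 3 of 3 pairs was not counted, so these counts set no member apart. The smallest p of an exact sign-flip test over 3 pairs is 0.25. The mean differences in common rank were 8.57 at Aldoa, 3.08 at Slc2a4, -1.89 at Spag7 beside Eno3 and -1.92 at Pfkm.

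**Figure D3:**
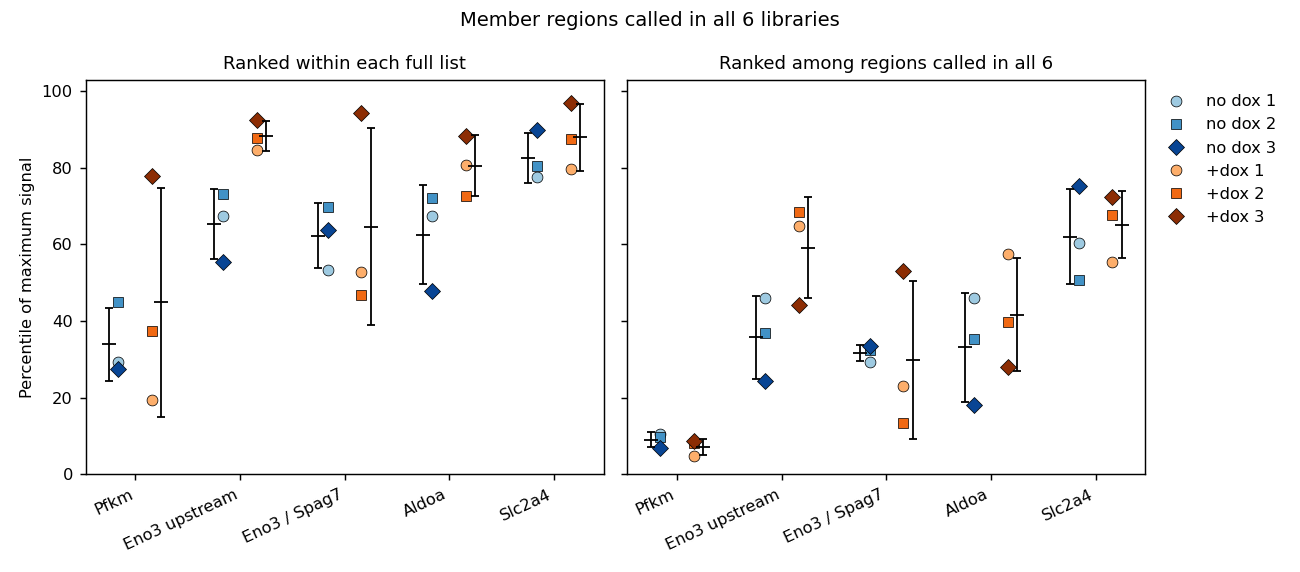
Percentile of maximum signal (y axis) at the 5 member regions called in all 6 libraries, ranked in each full list (left) and among the 4838 regions common to all lists (right). Points are libraries, and bars are the mean and SD of 3. Eno3 upstream was higher with dox on both scales (mean differences 22.9 and 23.4), with groups that overlapped on the right, whereas Pfkm and the Spag7 region turned from higher to lower.

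A limma fit to log2 maximum signal (CPM) over the 4838 regions gave log2 fold changes of 1.64 ± 0.588 (SE) at Eno3 upstream, 1.15 ± 0.598 at Aldoa, 1.10 ± 0.536 at Slc2a4, 0.744 ± 0.549 at Spag7 and 0.496 ± 0.523 at Pfkm. The adjusted p-values by Benjamini-Hochberg were 0.208, 0.216, 0.21, 0.313 and 0.456. The fit called 0% of all regions higher and 0% lower, with 1158 higher and 0 lower at an unadjusted p under 0.05. The median log2 fold change of all regions was 0.91, so the values of Slc2a4 and Aldoa were close to that of a typical region. With library medians set equal the 5 values were 0.715, 0.22, 0.172, -0.182 and -0.43, all with adjusted p = 0.984.

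Same-numbered libraries deviated together, though number 2 hardly more than libraries of unlike number (correlations of 0.267 and 0.219). The fit with replicate number as a block changed the calls. With the block, 52% of all regions were called higher and 0.103% lower. The members called were Eno3 upstream (adjusted p = 0.000606), Slc2a4 (0.0126) and Aldoa (0.0176) in limma, while the Spag7 region (0.123) and Pfkm (0.302) were not. A count of 3 of 5 beside 52% of all regions sets no member apart. With the block and equal library medians, 0 regions were called higher and 1 lower of 4838, and the members had adjusted p between 0.39 and 0.879. Without the block, leaving out +dox replicate 3 called Eno3 upstream (log2 fold change 2.08, adjusted p = 0.00661 in limma) and Aldoa (1.57, 0.0256), where 39.4% of all regions were called higher. Leaving out both replicates 3 called Eno3 upstream (1.71, 0.00667), where 35.3% were. CPM carries no spike-in, so a shift shared by all regions and a difference in the share of signal in peaks cannot be told apart.

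E-boxes were counted in the 16 recurrent regions on both strands. CAGCTG lay within the region with 100 bp added on each side in 13 of 16 (81.2%, 95% Wilson interval 57 to 93.4), against 64.1% of all merged regions and 85.4% of regions called in all 6. In the 200 bp around the maximum, taken from the library where the region ranked highest, it lay in 5 of 16 (31.2%), against 30.1% and 48.3%. CAGGTG or its complement CACCTG lay in 6 of 16 such windows (37.5%, interval 18.5 to 61.4), against 21.3% and 19.1%. The AP-1 motif TGANTCA lay in 2 of 16 (12.5%), against 12.8% of all regions. The MEF2 motif lay in 0 of 16, against 1.07%. Regions differ in width, so the shares over whole regions are not per length. The interval covers counting error only.

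Other genes of the same pathways were set beside the members from 6 lists of 52 genes. Of these loci 32 were called without dox and 44 with dox, 25 had a region in all 6 libraries and 22 an Expanded region. By pathway, calls went from 2 to 4 of 4 for creatine, 9 to 14 of 16 for glycogen, 8 to 12 of 16 for glycolysis and 3 to 4 of 6 for energy sensing. They stood at 6 of 6 for purine nucleotides and 4 of 4 for glucose uptake in both groups. The median gene length of the 52 was 29.1 kb. Of 15 isozymes typical of other tissues, Ckb included, 8 were called without dox and 13 with dox.

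Several genes of these lists ranked above the members. Pkm, pyruvate kinase, had a mean percentile of 99.8 over the 6 libraries, with values from 99.5 to 99.9. Eno1, the ubiquitous enolase, had a mean of 89, above the 78.5 of Eno3. Glycogen synthase (Gys1) and UDP-glucose pyrophosphorylase (Ugp2) stood at 89.8 and 90.4, and Tbc1d1, a regulator of GLUT4 traffic, at 89.3, above the 85.3 of Slc2a4. The leading genes of the other lists were Gamt (86.9) and Gatm (83.8) of creatine synthesis, Ampd3 (86.6) and Adss (68.5) of purine nucleotides, Slc2a1 (79.8), the ubiquitous glucose transporter, and Prkag3 (84.9) and Prkag2 (81.7), subunits of AMP kinase. Aldoa stood at 75.2 and Pfkm at 44.1. These are levels of the strongest peak in a locus, whichever gene it belongs to.

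Such a region, called in every +dox library and in no library without dox, lay at 5 of the 52 loci: Aldoc, Gyg, Phkg1, Gapdh and Prkag1. Aldoc, the brain aldolase, had no no dox peak and ranked 58.4, 50.8 and 60.2 with dox, and Gyg, glycogenin, ranked 23, 19 and 60.2. At Phkg1, Gapdh and Prkag1 other peaks of the locus were called without dox.

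**Figure D4:**
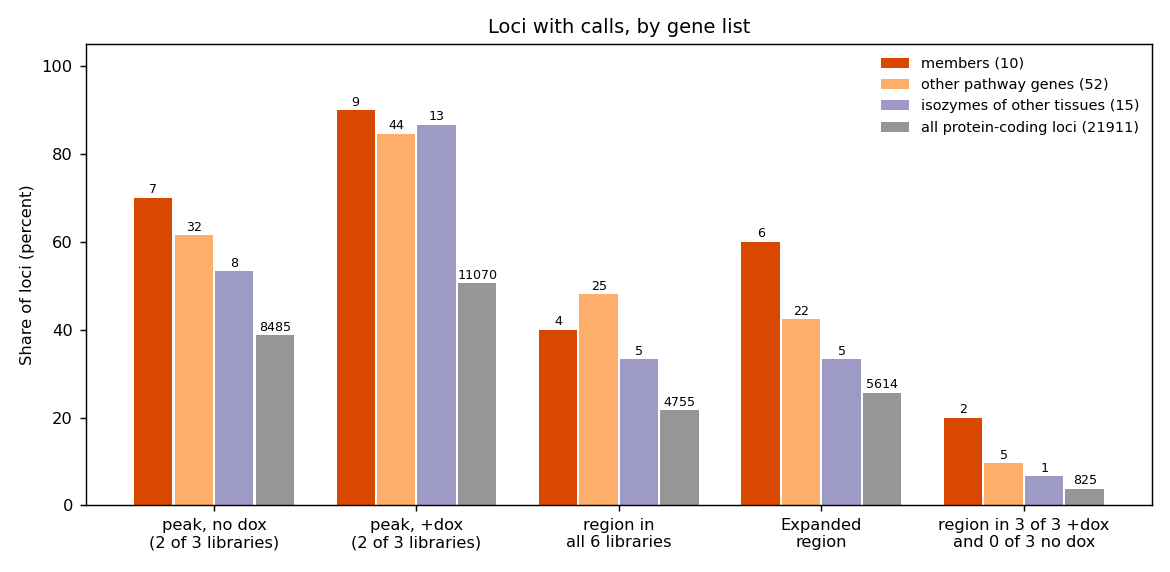
Share of loci with each kind of call (y axis, percent of loci) for the 10 members, 52 other pathway genes, 15 isozymes of other tissues (Ckb included) and all 21911 protein-coding loci. Numbers over the bars are loci, and bars start at 0. Members stood at 7 and 9 of 10 for a peak without and with dox, and the other pathway genes at 32 and 44 of 52.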

How the data were processed

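CUT&RUN with anti-Flag M2 was analysed in 3 no dox and 3 +dox libraries of tagged C2C12 cells, labelled as biological replicates. Per the study's methods, the authors ran nf-core/cutandrun on mm10, masked blacklisted regions, normalised coverage to CPM and called peaks in each library with SEACR in relaxed mode, and the submitters' processing notes also name deepTools. The deposited signal columns (total and maximum, in CPM) were used as given. A numeric threshold and a control library are not given in the sources used here. Depth came from the deposited signal: maxima were whole multiples (within 0.02) of the worth of 1 alignment.

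Percentiles were average ranks of maximum signal within a list. Overlapping or adjoining peaks were joined into regions, and a locus counted as called with an overlap of 1 bp. Per-library values were compared by exact two-sided permutation over 20 assignments (smallest p 0.1), and regions called in all 6 by limma 3.58.1 (R 4.3.3) on log2 maximum signal with trend and Benjamini-Hochberg adjustment. Python 3.11.15, pandas 2.3.3 and NumPy 2.4.6 were used. Merging, the permutation test and limma were tested on simulated data.

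The members, the pathway lists and the tests were chosen with earlier results of these data known. Named regions were those called in at least 2 of 3 libraries of a group. Named pathway genes were those with a region in 3 of 3 libraries of one group and 0 of 3 of the other, and the 2 highest loci of each list. Exceptions, chosen after their values were seen, were the single-library peaks named at Ckm, Ckb, Pgam2 and Pygm and the printed sequences of Ckm and Pfkm. All 10 members and all listed genes were matched by symbol, with both Aldoa identifiers joined. Sequences came from RefSeq GRCm38.p6, which is mm10. Same-numbered libraries correlated in their deviations from the group means (0.485, 0.267 and 0.628 for numbers 1, 2 and 3), so the numbers were taken to pair the libraries. The highest correlations of the same no dox libraries with a +dox library of another number were 0.265, 0.219 and -0.369. For number 2 the pairing therefore rests on little difference. The pairing comes from the replicate numbers in the labels. Alternatives covered the flank, list length, threshold, overlap, scaling, block and omission of each library.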

Additional observations from a re-analysis of the deposited data

How the results depend on the processing

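Of 284 recomputed values 235 kept their direction and their side of the threshold, or stayed within the spread. The 235 do not measure robustness, because part of them could not change. Permutation and sign-flip tests, with smallest p of 0.1 and 0.25, could not cross the threshold. The replicate block left mean differences as they were, and no dox counts could not change when a +dox library was left out. The values outside the 235 follow, and beyond what each setting removes the cause was not tested. For member loci called without dox (7), gene bodies without flanks gave 2 (29.4% of all loci) and flanks of 2 kb gave 4 (31.9%). For loci called with dox (9), gene bodies gave 4 (41.1% of all loci) and lists of equal length 5 (34.6%). For loci with an Expanded region (6), equal length gave 1 (10.2% of all loci) and one threshold of total signal (904) in all lists 3 (19%). Gene bodies gave 2 (18.4%) and flanks of 2 kb gave 3 (19.9%). Regions in every +dox but no library without dox (2) numbered 0 at equal length and at one threshold, 1 in gene bodies and with flanks of 2 kb, and 4 without both replicates 3. For that count the share of all loci is given in the main setting alone (3.77%). Leaving out each library in turn gave 5 to 7, 6 to 9, 4 to 6 and 2 to 3 for the counts above. The shares of all loci were then 27.1% to 38.7% without dox, 39.7% to 50.5% with dox and 12.5% to 36.2% for an Expanded region. The difference in peaks per library (13) was 4.5 to 17.5.

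The median difference in height of the strongest peak (13.1 points) was 1.37 ranked within lists of equal length (Aldoa -4.7), 5.82 among regions called in all 6 (Pfkm -1.92), 6.95 with flanks of 50 kb, 5.69 without both replicates 3 (Pfkm -1.75), and 4.72 (without +dox replicate 3) to 17.9 with each library left out. The median over regions called in all 6 (11 points) ranged from 0.931 (without +dox replicate 3) to 18. The Spag7 region beside Eno3 turned to -1.89 ranked among common regions and -11.8 without both replicates 3, and ranged from -12.5 to 11.2 with each library left out. Pfkm turned to -1.92 and -8.67 and ranged from -5.47 to 23.7.

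In limma the median log2 fold change of the 5 member regions (1.10) was 0.172 with library medians set equal, with or without the replicate block (Pfkm -0.43, Spag7 region -0.182). It was 0.236 with equal medians and without both replicates 3 (Pfkm -0.533, Spag7 region -0.563). Member regions past adjusted p of 0.05 in limma numbered 3 with the replicate block, 1 without both replicates 3, and 0 to 2 with each library left out (2 without +dox replicate 3). The replicate block changed no other call, but its sign-flip tests could give no p under 0.25. Both fits with equal medians and a second change were chosen after seeing the data. The share of recurrent regions with CAGCTG (81.2%) was 31.2% within 100 bp of the maximum, and any CANNTG gave 100%. Heights of 6 to 16 alignments at recurrent regions of Ckm, Pygm and Ampd1 and at the no dox peaks of Pgam2 are few counts, and the part of depth in these calls was not tested.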
